A study of Mus musculus with 4 samples.

Results

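The genes described here are 5 matrix metalloproteinases (Mmp2, Mmp3, Mmp14, Mmp9 and Mmp12) and 3 tissue inhibitors of metalloproteinases (Timp1, Timp2 and Timp3). They were chosen by symbol. All 8 were found among the 31053 genes listed in each of the 4 count matrices, and their values are given per cell class, per library and per group.

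The libraries are 10x Genomics single-cell libraries from the submandibular gland of female C57BL6/J mice, a salivary gland whose main duct can be clipped shut and reopened. In 2 deligated libraries (age 14 weeks) a metal clip had closed the main ducts for 14 days and had been removed for 5 days. In 2 homeostatic libraries (age 12 weeks) no surgery had been done. All suspensions were depleted of EpCAM+ epithelial cells and Ter119+ red blood cells with magnetic beads, so what remained was enriched for stroma. The protocols also name the sublingual gland and do not say how many animals gave a library, so the p-values below measure the spread between libraries, which may be technical. Age and the Cell Ranger version used for counting (6.0.1 for deligated, 7.0.0 for homeostatic libraries, per the file headers) differ along with the surgery, and these cannot be told apart from it.

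Matrix metalloproteinases are zinc-dependent proteases that cut collagens, elastin, laminins and other matrix proteins, and most are secreted as inactive precursors. Tissue inhibitors of metalloproteinases bind the active site of the proteases. TIMP2 has a further role, since a complex of TIMP2 with the membrane-bound protease MMP14 captures and activates the MMP2 precursor, and TIMP3 differs from the other inhibitors in being held in the extracellular matrix.

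After filtering, 4357 and 7823 deligated cells and 10615 and 10900 homeostatic cells were kept, with median unique molecular identifier (UMI) counts of 6013 and 5155 against 2848 and 2697. Library pairs shared 8 to 37 cell barcodes among the retained cells. Of 44 clusters, 34 were named from marker genes and are called "-like" here. Fibroblast-like cells numbered 359, 752, 279 and 272 in deligated 1, deligated 2, homeostatic 1 and homeostatic 2, the order used for every set of 4 values below. Their defining markers were present, with Pdgfra at 1051, 1414, 1315 and 1389 CPM and Col1a1 at 5309, 3817, 1470.1 and 1553 CPM. Different clusters held most cells of a class in the 2 groups. Fibroblast-like cells came mainly from a cluster led by Cilp, Col1a1 and Gpx3 in the deligated libraries and from one led by Lsamp, Astn2 and Eda in the homeostatic libraries. The largest endothelial-like clusters were led by Hlx, Rsad2 and Aplnr and by Gm20532, Rapgef4os1 and Dlg2, respectively. For mural-like cells they were led by Kcnj8 and Abcc9 and by Tagln and Myh11 (deligated) and by Grm7 and Dgkb (homeostatic), for NK-like cells by Tnni1 and Gzmb and by Dok6 and Oprm1, and for T cell-like cells by Cd8b1 and Ly6c2 and by Themis and Cd6. Macrophage-like cells came from the same 2 clusters in both groups. At the finer resolution of 2.0, however, one of these split by group. A cluster led by C3ar1, Cx3cr1 and Il1b, with Mmp12 among its leading genes, held 16, 49, 1 and 3 cells, and one led by Frmpd4, Fat3 and Nlrp1b held 1, 4, 411 and 391. The clusters were made without Mmp, Timp, Adam and Adamts genes. Levels are in CPM, a gene's UMIs summed over the cells of a class in a library and scaled to the total of that sum, and levels between different genes are not compared.

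**Figure D1:**
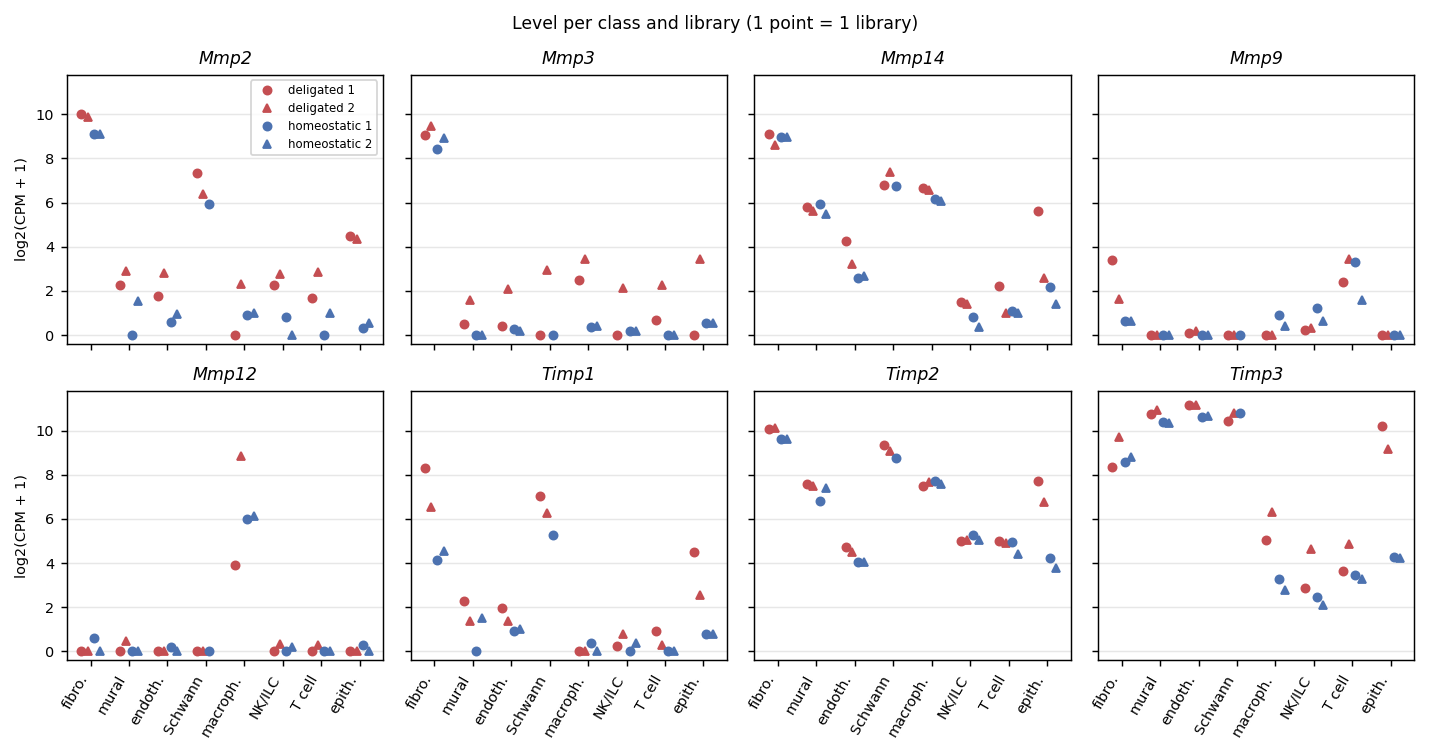
Level of each member as log2(CPM + 1) in 8 cell classes, with 1 point per library (red, deligated; blue, homeostatic; circle, replicate 1; triangle, replicate 2). Classes with under 25 cells in a library are not drawn there, so the Schwann class has no point for homeostatic 2. Among the classes drawn, Mmp2 and Mmp3 are highest in fibroblast-like cells, Mmp12 in macrophage-like cells, and Timp3 in the vessel and Schwann classes.

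Mmp2 encodes gelatinase A, which degrades denatured collagen and basement membrane collagen. The gene (ENSMUSG00000031740) lies on chromosome 8 at chr8:92827291-92853420 of GRCm38. In fibroblast-like cells it stood at 1031, 941, 558 and 558 CPM, so both deligated libraries were above both homeostatic ones. The log2 fold change was 0.88 ± 0.12 (SE, edgeR quasi-likelihood test, adjusted p = 0.000592), and it was called in all 13 alternative analyses. These include finer clusters, which left this class unchanged, and fits with 1 library in a group. With every cell thinned to 1000 UMIs, 58.4%, 55.7%, 39.9% and 41.8% of fibroblast-like cells had an Mmp2 UMI, and without thinning 98.3%, 94.0%, 84.6% and 89.3%. In endothelial-like cells the thinned shares were 0.269%, 0.617%, 0.0290% and 0.0586%. Median depth was 13052, 9061, 6611 and 6571.5 UMIs per fibroblast-like cell and 5844, 4416, 3613.5 and 3613 per endothelial-like cell. Fibroblast-like cells held 97.8%, 96.0%, 97.0% and 97.3% of all Mmp2 UMIs of a library. Schwann-like cells, the glia of peripheral nerves, came next at 161, 84.0, 60.4 and 90.2 CPM (28, 63, 40 and 22 cells), with overlapping groups and no test. Their summed level of 8 fibroblast markers was 10.7%, 6.45%, 5.20% and 3.82% of that in fibroblast-like cells, with 5, 5, 5 and 3 of 8 detected and Pdgfra and Dpt at 0 in each library. The part of these in the Mmp2 value was not tested.

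The same gene was called in 2 classes where it was sparse. In endothelial-like cells Mmp2 stood at 2.42, 6.02, 0.495 and 0.947 CPM (log2 fold change 2.56 ± 0.54, adjusted p = 0.0130, and 1.83 to 3.09 when 1 library was left out). In cells like natural killer (NK) and other innate lymphocytes it stood at 3.88, 5.88, 0.738 and 0 CPM (3.80 ± 0.68, adjusted p = 0.00308). The second call was lost without deligated replicate 1 (adjusted p = 0.0616) or deligated replicate 2 (adjusted p = 0.0888), and without homeostatic replicate 1, where the homeostatic level is 0, or homeostatic replicate 2 the fitted value was 8.38 or 2.82. The 8 fibroblast markers moved the same way: their summed level was 39.6, 121, 11.2 and 10.6 CPM in endothelial-like cells and 43.8, 117, 23.2 and 7.34 CPM in NK-like cells. All 8 were detected in both deligated libraries, whereas in homeostatic 1 Dpt was at 0 in endothelial-like cells and Pi16 in NK-like cells. Scaling the fibroblast Mmp2 level by the marker sums gives 0.997, 2.97, 0.229 and 0.209 CPM for endothelial-like cells and 1.10, 2.86, 0.471 and 0.144 CPM for NK-like cells. The observed values lay above these scaled values in every library except homeostatic 2 for NK-like cells, where no UMI was counted. The part of fibroblast RNA in these 2 calls was not tested.

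Mmp3 encodes stromelysin 1, which cuts proteoglycans, laminin and fibronectin and can activate other metalloproteinase precursors. The gene (ENSMUSG00000043613) spans chr9:7445822-7455975. It was nearly confined to one class: 99.6%, 97.2%, 98.9% and 99.2% of its UMIs were in fibroblast-like cells, at 530.2, 717, 346 and 480.1 CPM. Both deligated libraries were above both homeostatic ones, but the lower deligated and the higher homeostatic value were close. The change was 0.65 ± 0.18 on the log2 scale (adjusted p = 0.0271). The call was lost after removing the trend of fold changes with intron length (0.49, adjusted p = 0.101), without homeostatic replicate 1 (0.41, adjusted p = 0.331) and without homeostatic replicate 2 (0.92, adjusted p = 0.0512). Thinned shares of cells with a UMI were 27.1%, 32.4%, 17.2% and 22.4% (63.2%, 65.8%, 43.4% and 50.4% without thinning). Elsewhere Mmp3 was at the edge of detection, with 0.346, 3.22, 0.212 and 0.146 CPM in endothelial-like cells. The value of deligated 2 stood apart there, as its fibroblast marker sum did, and the part of fibroblast RNA in it was not tested.

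The 250 bases before the start of Mmp3 and of Timp1 are printed because these 2 genes are the stromelysin and the inhibitor with the larger change of the 2 inhibitors that rose in fibroblast-like cells, and that of Mmp12 because 1 of its 2 listed starts holds the same motif as Mmp3. The sequences are from RefSeq on GRCm38.p6, 5′ to 3′ on the gene's strand (plus for all 3), and capitals mark a match to the AP-1 motif TGANTCA, searched on both strands.
Mmp3, chr9:7445572-7445821: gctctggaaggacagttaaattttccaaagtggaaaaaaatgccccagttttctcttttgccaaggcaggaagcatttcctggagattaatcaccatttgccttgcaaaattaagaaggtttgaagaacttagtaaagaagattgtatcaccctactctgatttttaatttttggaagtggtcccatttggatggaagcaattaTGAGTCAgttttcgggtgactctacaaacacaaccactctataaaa
Timp1, chrX:20869916-20870165: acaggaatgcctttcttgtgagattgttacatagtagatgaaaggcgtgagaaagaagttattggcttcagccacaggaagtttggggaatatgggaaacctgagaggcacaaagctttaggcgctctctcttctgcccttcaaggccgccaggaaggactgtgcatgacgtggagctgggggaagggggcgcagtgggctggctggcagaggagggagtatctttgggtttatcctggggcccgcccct
Mmp12, second start, chr9:7347124-7347373: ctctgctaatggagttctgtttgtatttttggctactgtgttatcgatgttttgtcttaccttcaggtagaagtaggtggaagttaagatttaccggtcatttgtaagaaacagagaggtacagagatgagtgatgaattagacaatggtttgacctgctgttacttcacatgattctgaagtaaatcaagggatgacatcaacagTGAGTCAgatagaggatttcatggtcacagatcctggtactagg

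In the Mmp3 window the AP-1 match begins at position -46 from the start, and the letters TATAAA begin at position -7. In the second Mmp12 window the AP-1 match begins at position -44. The Timp1 window holds neither set of letters, nor do those of Mmp14, Timp2, Timp3 and the first Mmp12 start. Of 32851 promoter windows of this length, 6.75% hold TGANTCA and 12.4% hold TATAAA. These matches describe letters and are not evidence of binding. Mmp2 and Mmp9 were not searched.

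Mmp14 encodes membrane type 1 metalloproteinase, a collagenase anchored in the cell surface. The gene (ENSMUSG00000000957) lies at chr14:54431612-54445364. In fibroblast-like cells it stood at 555, 389, 505 and 496 CPM, so the deligated libraries lay on either side of the homeostatic pair. The log2 fold change was -0.02 ± 0.18 (adjusted p = 0.949). Each deligated library alone gave a change in the opposite direction: 0.27 without deligated replicate 2 and -0.34 without deligated replicate 1. A fit with 1 deligated library holds no spread between deligated libraries, so only the sizes are given. Thinned shares of cells with a UMI were 42.5% and 28.5% in the deligated and 42.9% and 39.6% in the homeostatic libraries, so deligated 2 was again the lowest, while deligated 1 lay between the homeostatic libraries.

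Outside fibroblasts Mmp14 was spread over more classes than Mmp2 or Mmp3. Schwann-like cells had 112, 165, 106 and 105 CPM, macrophage-like cells 102, 94.3, 70.4 and 65.3 CPM, and mural-like cells (pericytes and vascular smooth muscle) 53.9, 48.4, 59.3 and 43.2 CPM. In macrophage-like cells the deligated pair was above the homeostatic pair, at a log2 fold change of 0.54 ± 0.21 that did not pass (adjusted p = 0.0938). Within mural-like cells, those with more pericyte than smooth muscle markers had 76.5, 65.9, 71.2 and 66.3 CPM against 38.3, 29.1, 50.6 and 39.7 CPM in those with more smooth muscle markers, and the 2 ranges did not overlap. Between 24.2% and 34.4% of mural-like cells of a library lay within 1 marker of that division.

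In endothelial-like cells Mmp14 stood at 18.3, 8.40, 5.02 and 5.46 CPM and rose by 1.37 ± 0.40 on the log2 scale (adjusted p = 0.0388). That call did not hold in thinned cells (0.88, adjusted p = 0.141), after the correction for intron length (0.0595), or without either homeostatic replicate (adjusted p = 0.0935 and 0.0616). Without deligated replicate 1 the change was 0.66. The fibroblast level scaled by the marker sums was 0.536, 1.23, 0.207 and 0.186 CPM, below the observed value in each library, and the part of fibroblast RNA in the call was not tested. The endothelial-like clusters with Selp and Vwf, genes of venules, among their leading genes had 57.8 and 34.9 CPM of Mmp14 in the deligated cluster, the highest of the deligated endothelial-like clusters of 25 cells or more, and 17.4 and 17.6 CPM in the homeostatic one. The change of Mmp14 in fibroblast-like minus that in endothelial-like cells was -1.20 ± 0.21 on the log2 scale (interaction test, adjusted p = 0.00376). In thinned cells it was -0.94 and not called (adjusted p = 0.191). NK-like cells had 1.85, 1.63, 0.738 and 0.288 CPM from 10, 20, 5 and 2 UMIs (log2 fold change 1.78 ± 0.54, adjusted p = 0.0293), a call lost in 7 of 10 alternatives.

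Mmp9 encodes gelatinase B, known from neutrophils, macrophages and migrating cells. The gene (ENSMUSG00000017737) spans chr2:164940780-164955850. It was rare, with 83, 67, 26 and 19 UMIs in the whole libraries. The class that held most of them differed between libraries. Fibroblast-like cells held 45, 14, 1 and 1 of these UMIs, T cell-like cells 14, 41, 8 and 2, and NK-like cells 1, 3, 9 and 4. No cluster was named for neutrophils. In T cell-like cells it stood at 4.31, 9.94, 8.95 and 1.96 CPM, with overlapping groups (log2 fold change 0.57 ± 0.69, adjusted p = 0.606). Of the 65 UMIs in that class, 13 and 41 were in the deligated cluster led by Cd8b1 and Ly6c2 and 8 and 2 in the homeostatic cluster led by Themis.

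In fibroblast-like cells the Mmp9 UMIs amount to 9.51, 2.14, 0.542 and 0.562 CPM. This was too few for the filter on low counts. The pooled ratio was 9.49, with a 95% interval of 2.51 to 80.2 that covers counting error only. Without the filter, the log2 fold change was 3.39 ± 0.74 (adjusted p = 6.47e-05). Deligated 1 alone supplied 45 of the 59 deligated UMIs. After thinning, 5 of 358, 1 of 729, 1 of 273 and 0 of 268 cells had a UMI, and the last count allows a share of up to 1.12%. Monocyte- or dendritic-like cells had 18, 2, 0 and 4 UMIs in 19, 16, 27 and 27 cells.

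Mmp12 encodes macrophage elastase, which degrades elastin. The gene (ENSMUSG00000049723) lies at chr9:7344381-7369499 and overlaps Mmp1b on the other strand. Macrophage-like cells held 75.1% of its 874 UMIs. A further 19.6% lay in an unnamed cluster that carried all 8 macrophage markers together with haemoglobin genes. In macrophage-like cells it stood at 13.9, 456, 63.6 and 68.5 CPM, from 3, 227, 216 and 210 UMIs. The homeostatic pair was even, and the deligated libraries lay far below and far above it.

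The fitted log2 fold change of 2.15 ± 0.47 (adjusted p = 0.00555) rests on deligated 2. Without that library it was -2.20, and DESeq2 gave an adjusted p of 0.734. The call was also lost in thinned cells (adjusted p = 0.176) and with the replicate block (adjusted p = 0.0534). Only 37 and 97 deligated cells were in this class, against 926 and 925. In deligated 2, 9 cells had an Mmp12 UMI, 1 of them with 132 UMIs, and without that cell the library stood at 195 CPM. In the homeostatic libraries 67 and 58 cells had a UMI. The share of cells with a UMI was 5.41%, 9.28%, 7.24% and 6.27%, and after thinning 0%, 6.33%, 3.74% and 2.81%. The thinned 0% came from 29 cells and allows up to 10.3%. Among macrophage-like cells, 609 of the 656 UMIs were in the cluster led by Nlrp1b, Fat3 and Frmpd4, which also had Cx3cr1 among its leading genes. That is the cluster that split by group at the finer resolution, so the Mmp12 comparison is largely between different finer clusters.

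**Figure D2:**
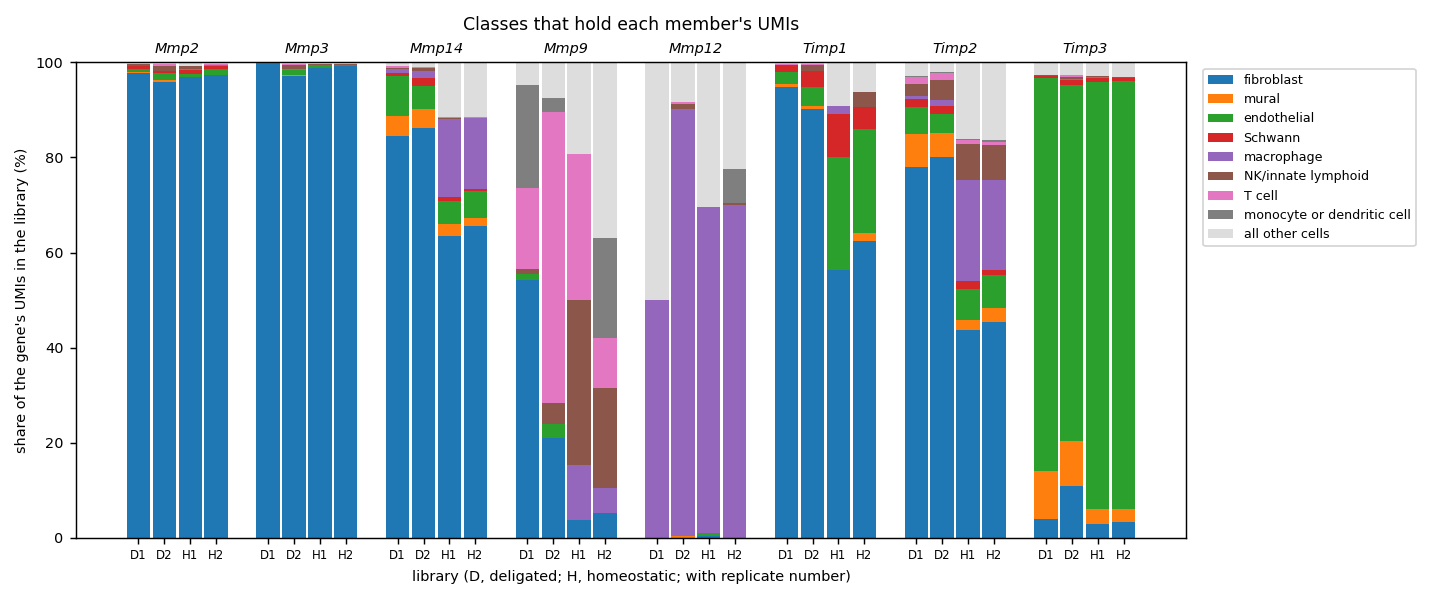
Share of each member's UMIs in a library (y axis, %) that lay in each class, for deligated (D) and homeostatic (H) libraries 1 and 2. Mmp2 and Mmp3 bars are almost wholly fibroblast-like in each library and Timp3 bars mostly endothelial-like, while the Timp2 and Mmp14 bars hold more macrophage-like UMIs in the homeostatic libraries, where that class was larger. The first Mmp12 bar stands for only 6 UMIs.

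Timp1 encodes a secreted inhibitor of most soluble metalloproteinases and is known as an early gene of wounds and fibrosis. The gene (ENSMUSG00000001131) spans chrX:20870166-20874735 and overlaps Syn1, which is on the other strand. In fibroblast-like cells it stood at 321, 92.7, 16.8 and 22.5 CPM, from 1517, 607, 31 and 40 UMIs. Both deligated libraries were well above both homeostatic ones, and they also differed from each other. The log2 fold change was 3.47 ± 0.56 (adjusted p = 0.00145). Over 13 alternatives, including the finer clusters that left the class unchanged, it ranged from 2.27 to 4.15 and was called in each. It was 4.15 without deligated replicate 2 and 2.27 without deligated replicate 1.

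Timp1 UMIs reached 51.0%, 36.6%, 5.02% and 6.99% of fibroblast-like cells, and 10.3%, 7.41%, 2.56% and 1.87% after thinning. In endothelial-like cells the thinned shares were 0.269%, 0.162%, 0.0871% and 0.0880%. Fibroblast-like cells with a UMI of Pi16 or Dpp4, markers of adventitial-type fibroblasts, had 314 and 100.3 CPM in the deligated libraries. Those without had 326 and 88.7 CPM, a smaller difference than that between the 2 deligated libraries. In the homeostatic libraries the first subset held 18 and 24 cells with 0 and 2 Timp1 UMIs.

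Timp1 in endothelial-like cells was at 2.90, 1.61, 0.919 and 1.02 CPM, and the log2 fold change of 1.23 ± 0.42 did not pass (adjusted p = 0.0634). The change was larger in fibroblast-like than in endothelial-like cells by 2.30 ± 0.43 on the log2 scale (interaction test, adjusted p = 0.00601). In thinned cells that difference was 1.48 and not called (adjusted p = 0.605). Schwann-like cells had 130.3, 77.3, 37.7 and 45.1 CPM, with the deligated pair higher. These values rest on 21, 23, 5 and 3 UMIs and were not tested.

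Timp2 encodes the inhibitor that takes part in MMP2 activation. The gene (ENSMUSG00000017466) lies on the minus strand at chr11:118301069-118355740 and overlaps Cep295nl on the same strand, so reads in the overlap could be split between them. Among classes with at least 25 cells in 3 or more libraries, fibroblast-like cells were highest, at 1073, 1108, 799.7 and 795 CPM, and the groups did not overlap. Timp2 rose by 0.51 ± 0.11 on the log2 scale there (adjusted p = 0.00841), lost without homeostatic replicate 1 (adjusted p = 0.169) or homeostatic replicate 2 (adjusted p = 0.149) at nearly the same size. Thinned shares of cells with a UMI were 63.4%, 66.1%, 49.5% and 52.2% (99.4%, 96.8%, 93.5% and 93.0% without thinning).

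Among the same classes Schwann-like cells followed for Timp2, at 658, 537, 438 and 496 CPM. Lymphatic endothelial-like cells, with only 9, 7, 4 and 9 cells, stood at 924, 1278, 1121 and 1170.1 CPM, which overlaps the fibroblast-like range. The next 2 classes overlapped each other, with 191, 181, 112 and 171 CPM in mural-like and 180.4, 203, 210.3 and 193 CPM in macrophage-like cells. Neither passed (log2 fold change 0.36 ± 0.22, adjusted p = 0.404, and -0.02 ± 0.16, adjusted p = 0.954). NK-like cells had 30.9, 32.3, 37.9 and 32.4 CPM and T cell-like cells 30.8, 29.6, 30.2 and 20.6 CPM, also without a call.

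Endothelial-like cells had less Timp2 than mural-like cells, at 25.4, 21.9, 15.5 and 15.4 CPM, and there it rose by 0.63 ± 0.13 on the log2 scale (adjusted p = 0.0126). That call was lost without either homeostatic replicate (adjusted p = 0.0745 and 0.0620). Within the class, Timp2 differed between clusters. The Selp- and Vwf-led clusters had 156 and 166 CPM in the deligated and 91.8 and 106 CPM in the homeostatic libraries. A cluster led by Stmn2 and Sema3g, the latter a gene of arteries, had 100.1, 82.0, 123 and 96.3 CPM (188, 288, 96 and 87 cells). These values leave out a cluster of homeostatic cells only (385 and 340), which also had Stmn2 and Gja5 among its leading genes. The largest clusters of each group had 8.65 and 10.99 CPM (deligated) and 3.23 and 3.68 CPM (homeostatic). The change in endothelial-like cells was larger than in macrophage-like cells by 0.75 ± 0.19 (interaction test, adjusted p = 0.0147) and than in NK-like cells by 0.72 ± 0.16 (adjusted p = 0.0213).

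Timp3 encodes the matrix-bound inhibitor, which also blocks several ADAM and ADAMTS proteases. The gene (ENSMUSG00000020044) spans chr10:86300372-86349506 and lies within the Syn3 locus on the other strand. Endothelial-like cells held 82.5%, 75.0%, 89.7% and 90.1% of its UMIs, at 2265, 2289, 1579.5 and 1599 CPM. The deligated pair was above the homeostatic pair, and the spread within each pair was small. The log2 fold change was 0.54 ± 0.09 (adjusted p = 0.00546). Without homeostatic replicate 1 or 2 the size was similar (0.52 and 0.56), but the call was lost (adjusted p = 0.143 and 0.113). With thinning, 79.9%, 81.9%, 71.1% and 71.8% of endothelial-like cells had a UMI. Within the class the order of these clusters was the reverse of that of Timp2: the Selp- and Vwf-led clusters had only 948, 929.7, 639 and 695 CPM, against 2446 and 2366 CPM (deligated) and 1662 and 1668 CPM (homeostatic) in the largest clusters.

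Mural-like cells had 1723, 1933, 1350.4 and 1309.8 CPM of Timp3, without overlap of the groups, but the log2 fold change of 0.42 ± 0.14 did not pass (adjusted p = 0.0964). Cells with more pericyte markers had 2113, 2269, 1623 and 1707 CPM, and cells with more smooth muscle markers 1418, 1669, 1169 and 1157 CPM, so the pericyte side was higher within every library. Schwann-like cells had 1396, 1807, 1774 and 1895 CPM. Their range overlapped that of mural-like and that of endothelial-like cells. The few lymphatic endothelial-like cells stood above all of these in Timp3, at 3648, 3208, 3509 and 3009 CPM from 371, 246, 72 and 144 UMIs.

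In fibroblast-like cells Timp3 stood at 328, 848, 383 and 444 CPM. Deligated 2 was high, while deligated 1 lay under both homeostatic libraries. Its change of 0.55 ± 0.32 on the log2 scale did not pass (adjusted p = 0.239). It was called in thinned cells (0.83, adjusted p = 0.0106) and with no filter on low counts (0.60, adjusted p = 0.000152). The change was 1.06 without deligated replicate 1 and -0.21 without deligated replicate 2, each a fit with 1 deligated library. Thinned shares of cells with a UMI set deligated 2 apart in the same way, at 26.5%, 45.7%, 27.1% and 26.9%. The 2 deligated libraries thus differed in the same class in opposite senses for Timp1 and Timp3: Timp1 was higher in deligated 1 and Timp3 in deligated 2.

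**Figure D3:**
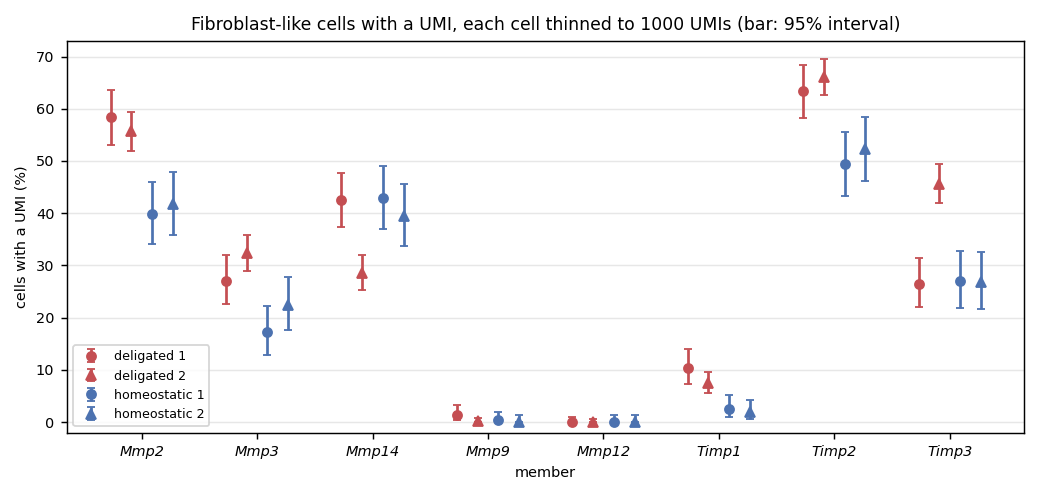
Share of fibroblast-like cells with at least 1 UMI of each member after thinning every cell to 1000 UMIs (y axis, %), per library, with exact 95% intervals for counting error. For Mmp2, Mmp3, Timp1 and Timp2 both deligated libraries are above both homeostatic ones; for Mmp14 and Timp3 one deligated library stands apart from the other 3.

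Timp3 was also called in 2 immune classes where it was low. Macrophage-like cells had 32.4, 78.3, 8.84 and 5.87 CPM (log2 fold change 3.10 ± 0.39, adjusted p = 5.72e-05) from 7, 39, 30 and 18 UMIs. All 7 UMIs of deligated 1 came from 1 cell, and the call was lost in thinned cells (adjusted p = 0.0886) and with the per-cell marker gate (1.01, adjusted p = 0.279). NK-like cells had 6.29, 23.6, 4.58 and 3.31 CPM (2.10 ± 0.54, adjusted p = 0.0155), a call lost without deligated replicate 2 (0.78, adjusted p = 0.138) without homeostatic replicate 2 (adjusted p = 0.0720), with DESeq2 (adjusted p = 0.0774) and with no filter on low counts (adjusted p = 0.0885). T cell-like cells had 11.4, 28.4, 10.1 and 8.82 CPM without a call (adjusted p = 0.135). In all 3 classes deligated 2 was the highest library. In macrophage-like and NK-like cells the summed level of 8 endothelial markers was also highest there. It was 69.4, 281, 50.7 and 53.8 CPM in macrophage-like and 106, 182, 106 and 106 CPM in NK-like cells. In deligated 1, 5 of 8 markers were detected in macrophage-like cells (Kdr, Tek and Erg at 0) and 7 of 8 in NK-like cells (Erg at 0). The endothelial Timp3 level scaled by these sums is 17.0, 62.5, 8.39 and 9.21 CPM for macrophage-like and 26.1, 40.5, 17.5 and 18.1 CPM for NK-like cells. The observed NK values lie below this in each library, and the macrophage values above it in every library except homeostatic 2. The part of endothelial RNA in the calls was not tested.

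Epithelial-like cells, which the beads were meant to remove, numbered 46 and 129 in the deligated and 3097 and 3325 in the homeostatic libraries. In them Timp3 stood at 1201, 576, 18.6 and 17.7 CPM (log2 fold change 5.13 ± 0.47, adjusted p = 0.000985) and Timp2 at 209, 108, 17.9 and 12.7 CPM (2.92 ± 0.34, adjusted p = 0.00246). In thinned cells the Timp2 change was 1.61 and not called (adjusted p = 0.382). The makeup of the class differed between groups. A cluster led by Igfbp2 and Krt14, with Krt5 and Trp63 as further markers of basal and myoepithelial cells, held 17, 7, 15 and 4 cells. It supplied 84.9% and 26.6% of the class's UMIs in the deligated libraries but 2.66% and 0.634% in the homeostatic ones. That cluster gave 274 of 276 and 109 of 117 deligated Timp3 UMIs, and 10 and 11 Timp3 UMIs in the homeostatic libraries. Its Timp2 UMIs were 47, 19, 9 and 1. Within the cluster, both genes made up less of its own UMIs in the homeostatic libraries, on few cells. The part of this difference in makeup in the 2 calls was not tested.

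**Figure D4:**
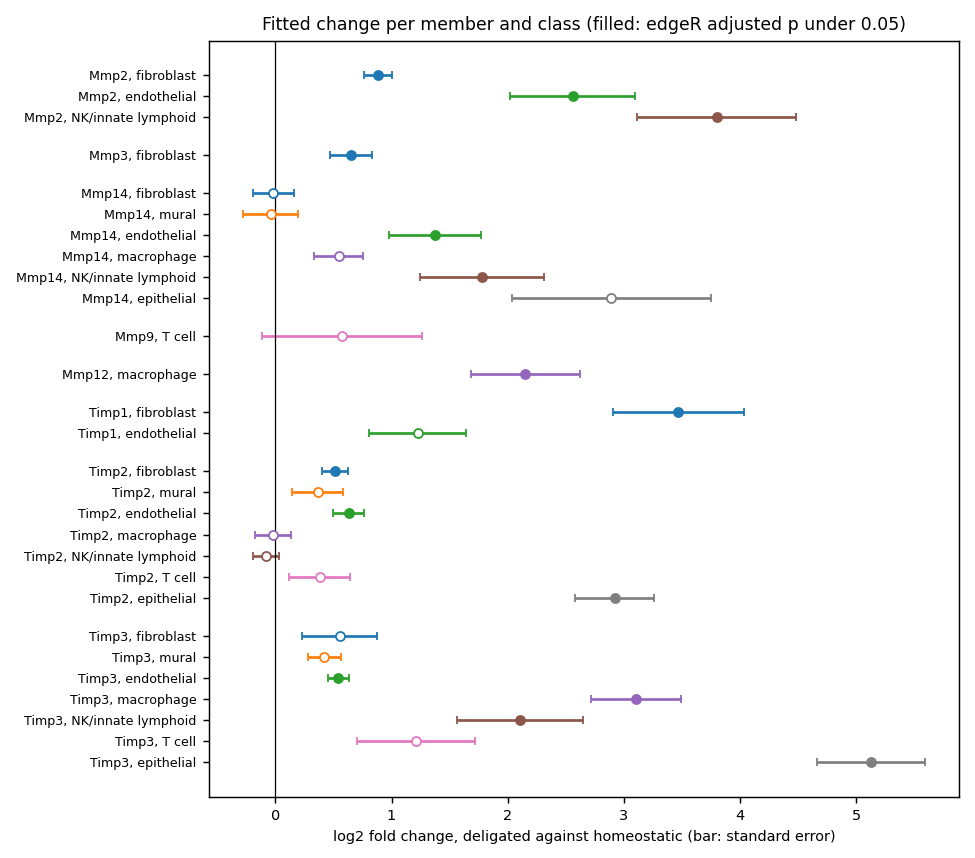
Fitted log2 fold change (x axis, deligated against homeostatic; bar, standard error) for each member in each class where it passed the filter on low counts. Filled points had an edgeR adjusted p under 0.05. The largest fitted changes outside fibroblast-like cells are for genes at low levels or in the epithelial-like class, whose makeup differed between the groups.

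By class, 6 of the 8 genes passed the filter in fibroblast-like cells and 4 rose (Mmp2, Mmp3, Timp1 and Timp2). The background there is 25.5% of 11443 genes called in either direction and 8.31% called higher. In endothelial-like cells 5 passed the filter and 4 rose, against 35.5% of all genes called and 13.1% called higher. In macrophage-like cells 2 of 4 were called (15.2% of all genes, 4.81% higher), in NK-like cells 3 of 4 (43.7%, 16.9% higher) and in epithelial-like cells 2 of 3 (10.6%, 8.51% higher and 2.12% lower). None of 3 was called in mural-like cells (7.35% of all genes, 1.13% higher and 6.22% lower) or in T cell-like cells (19.2%, 5.04% higher). DESeq2 called 0 in both classes, and at an unadjusted p under 0.05 the edgeR test gave 1 in each, Timp3. No member that passed the filter was called lower in any class. In NK-like cells Mmp2 had 93 deligated and 5 homeostatic UMIs, and Mmp14 had 30 and 7. These 2 genes thus passed the filter through the libraries in which they were high. Mmp9 did not pass it there and went the other way, with 4 deligated and 13 homeostatic UMIs. Its pooled ratio was 0.239, with an interval of 0.0568 to 0.775 that covers counting error only. The median log2 fold change of the genes that passed the filter was 0.60 in fibroblast-like cells and 1.23 in endothelial-like cells, with medians near 0 over all genes.

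The changes of the genes were also compared between classes by an interaction test, in 122 combinations of a gene and a pair of classes, of which 27 were called. Thinning left 87 combinations and 7 calls. Of the 27, those of Timp2 in endothelial-like against macrophage-like (1.86, adjusted p = 0.00674) and NK-like cells (1.27, adjusted p = 0.00623) and of Timp3 in fibroblast-, mural- and endothelial-like against epithelial-like cells were called again. The other calls below were lost or had no thinned value. Thinned cells gave 2 further calls, for Mmp2 in fibroblast-like against endothelial-like cells (-2.39, adjusted p = 0.0412; -1.54 and 0.0778 without thinning) and for Timp3 in endothelial-like against NK-like cells (-2.01, adjusted p = 0.00146; -1.41 and 0.140 without thinning). Fibroblast-like cells differed from NK-like cells for 4 genes (Mmp2, Mmp9, Mmp14 and Timp3; 4.28% of all genes called), from endothelial-like cells for 2 (Mmp14 and Timp1; 5.17%), from macrophage-like cells for 2 (Mmp3 and Timp3; 2.4%) and from epithelial-like cells for 4 (Mmp2, Mmp14, Timp2 and Timp3; 16.3%). They did not pass for any gene against mural-like (0.537%) or T cell-like cells (0.405%). Endothelial-like cells differed from macrophage-like cells for Timp2 and Timp3 (3.02%), from NK-like cells for Timp2 (9.37%) and from epithelial-like cells for Timp2 and Timp3 (15%). Mural-like cells differed from macrophage-like (1.52%) and NK-like cells (4.23%) for Timp3 and from epithelial-like cells for Mmp14, Timp2 and Timp3 (6.08%). For mural-like against endothelial-like (0.662%) and T cell-like cells (1.32%), and for endothelial-like against T cell-like cells (2.21%), no gene of the set passed. Among the immune classes no pair differed (1.09% of all genes for macrophage- against NK-like, 1.29% for macrophage- against T cell-like and 0.102% for NK- against T cell-like cells), while macrophage-like (8.83%), NK-like (16.1%) and T cell-like cells (13.7%) each differed from epithelial-like cells for Timp2, and the last 2 also for Timp3. The difference for Timp3 between fibroblast-like and endothelial-like cells was 0.03 (adjusted p = 0.991), and that for Timp2 was 0.03 (adjusted p = 0.951).

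The makeup of the suspensions also differed between the groups. Mmp2 was at 154, 139.5, 25.2 and 25.1 CPM of all retained cells, and fibroblast-like cells made up 8.24%, 9.61%, 2.63% and 2.50% of them. Mmp12 was at 0.185, 5.50, 7.47 and 7.36 CPM of all retained cells, and macrophage-like cells made up 0.849%, 1.24%, 8.72% and 8.49%.

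The 3 components named above for MMP2 activation were seen in single fibroblast-like cells together. After thinning, 17.0%, 12.2%, 9.52% and 10.8% of fibroblast-like cells had a UMI of each of Mmp2, Mmp14 and Timp2, and without thinning 96.1%, 82.0%, 78.1% and 75.7%. The product of the 3 separate thinned shares is 15.7%, 10.5%, 8.46% and 8.63%. The observed thinned shares rest on 61, 89, 26 and 29 cells and lay only slightly above the product. No interval was computed for the difference, so whether the 3 genes occur together more often than their separate shares give was not tested.

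The other genes of the protease network were taken from 3 lists of 41 genes in all. Their changes are given without the alternative analyses. Removing the intron-length trend changed the number of genes called. In fibroblast-, endothelial- and NK-like cells, those called lower went from 1970 to 1045, 2943 to 2291 and 3073 to 1955. Those called higher went from 951 to 941, 1723 to 1619 and 1943 to 1682. Whether the genes of the lists kept their calls there is not given. Of 14 genes in the first list, further metalloproteinases and Timp4, 4 passed the filter in fibroblast-like cells. Mmp11, stromelysin 3, rose (68.7, 108, 31.9 and 43.2 CPM; 1.29 ± 0.23, adjusted p = 0.00266), and Mmp16, a membrane-type enzyme, fell (10.6, 8.70, 23.8 and 23.6 CPM; -1.25 ± 0.23, adjusted p = 0.00345). The list's median was 0.30. Of 14 ADAM and ADAMTS proteases 13 passed the filter, 3 rose and 3 fell, with a median of 0.19, beside 8.31% of all genes called higher and 17.2% called lower in this class. Adam12 (-1.62), Adam19 (-1.34) and Adamts9 (-1.12) fell, while Adamts2, the procollagen N-propeptidase, rose (194, 173, 92.05 and 105 CPM; 0.96 ± 0.15, adjusted p = 0.00111) along with Adamts15 (0.57) and Adam17 (0.49).

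Of 13 activators, other inhibitors and clearance genes 11 passed the filter in fibroblast-like cells, 6 rose and 3 fell, with a median of 0.42. Thbs2 (1.38), Serpine2 (0.74), the tissue plasminogen activator Plat (0.67), Bsg (0.44) and Lrp1 (0.42) were among those that rose. Reck, a membrane-anchored metalloproteinase inhibitor, fell (46.1, 67.3, 121 and 112 CPM; -0.97 ± 0.18, adjusted p = 0.00277), as did the urokinase gene Plau (-0.64) and Thbs1 (-0.55).

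In endothelial-like cells 6, 12 and 12 genes of these lists passed the filter, and 22.4% of all genes were called lower. Mmp28 fell (-2.25) and none of the first list rose. Of the ADAM and ADAMTS list Adamts1 (0.85) and Adam15 (0.56) rose and Adam12 (-1.31), Adamts9 (-1.13) and Adam19 (-0.55) fell. Of the third list Lrp1 (2.01), Serpine2 (0.69), Thbs2 (0.66) and Furin (0.57) rose and Plaur (-1.17) fell. The list medians were 0.10, -0.09 and -0.02. Lrp1 stood at 2.21, 6.13, 0.707 and 1.38 CPM in endothelial-like cells against 1409.96, 1433, 1079 and 1142 CPM in fibroblast-like cells.

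In macrophage-like cells 15 genes of the 3 lists passed the filter, and 10.3% of all genes were called lower. Adam8 (2.96) and Adam15 (0.97) rose, and Adam9 (-1.26), Adam19 (-1.22), Plau (-1.06) and Adam10 (-0.90) fell.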

How the data were processed

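The deposited matrices hold raw UMI counts per gene and cell barcode, made by the authors with Cell Ranger 6.0.1 (deligated) and 7.0.0 (homeostatic), per the file headers; the submitters' processing notes name mm10, Cell Ranger 6.0.1 and Seurat. Whether intronic reads or strand entered the counting is not given in the sources used here. Libraries held 35662241 to 53898793 UMIs. Cells with at least 300 genes and at most 10% mitochondrial UMIs were kept, and the highest-scoring simulated-doublet neighbours were removed at 0.8% per 1000 cells. Leiden clusters (leidenalg 0.10.2, resolution 1.0) were named where at least 3 markers of a class reached 10% of cells at 2.0-fold. UMIs were summed per class and library and tested with edgeR 4.0.16 (quasi-likelihood, TMM, Benjamini-Hochberg over all genes that passed filterByExpr) where each library had at least 25 cells. The tests were tried first on simulated counts, where 66.3% of genes changed by a log2 fold of 1 were recovered in fibroblast-like cells (11135 genes). Differences between classes used an interaction term. Zero limits are 3 counts, and binomial intervals are exact (Clopper-Pearson, 95%); all cover counting error only. Alternatives were thinning to 1000 UMIs, DESeq2 1.42.0, DESeq2 size factors, no low-count filter, a marker gate, finer clusters, stricter cells, an intron-length trend, a replicate block and leaving out each library. The genes named are the 8 members, called genes of the 3 lists (1 is not reported here) and, per member, the 3 genes most like it. Members, lists and tests were chosen with earlier results of these data known.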

Additional observations from a re-analysis of the deposited data

Results flagged for a closer look

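In 24 cases the change of a gene of the set between the groups, called its effect below, differed between 2 cell classes by an edgeR interaction test. In these cases the gene is among those tested within both classes. The other 3 of the 27 calls were for genes too sparse for a test within at least 1 of the classes (for Mmp9, within both): Mmp2 in fibroblast-like against epithelial-like (-4.07, 0.00725), Mmp3 in fibroblast-like against macrophage-like (-3.79, 0.0156) and Mmp9 in fibroblast-like against NK-like cells (4.84, 0.0476). Each value below is the log2 fold change in the first class minus that in the second, with its adjusted p, and no explanation was tested. The share of all genes called for the same pair of classes ran from 1.52% to 16.3%. The makeup of epithelial-like cells differed between the groups.

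For Mmp14 the effect in fibroblast-like cells was smaller than in endothelial-like cells (-1.20, 0.00376; 5.17% of all genes), NK-like cells (-1.96, 0.0294; 4.28%) and epithelial-like cells (-2.54, 0.0326; 16.3%). It was also smaller in mural-like than in epithelial-like cells (-2.83, 0.0422; 6.08%). For Mmp2 it was smaller in fibroblast-like than in NK-like cells (-3.02, 0.00683). For Timp1 it was larger in fibroblast-like than in endothelial-like cells (2.30, 0.00601). None of these 6 differences of Mmp14, Mmp2 and Timp1 was called in thinned cells (adjusted p from 0.165 to 0.605). In the order given they were -0.94, -4.45, -3.60, -3.03, -2.03 and 1.48 there, so 3 of the 4 Mmp14 differences were larger in size than without thinning.

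For Timp2 the effect was larger in endothelial-like than in macrophage-like cells (0.75, 0.0147; 3.02% of all genes) and NK-like cells (0.72, 0.0213; 9.37%). Against epithelial-like cells it was smaller in each other class: fibroblast-like (-2.06, 0.00890), mural-like (-2.45, 0.00475), endothelial-like (-2.01, 0.00132; 15% of all genes), macrophage-like (-2.64, 0.000323; 8.83%), NK-like (-2.78, 0.000359; 16.1%) and T cell-like (-2.26, 0.00278; 13.7%). In thinned cells none of these 6 Timp2 differences from epithelial-like cells was called: they were -0.60 (0.784), -0.16 (0.969), 0.07 (0.997), -1.96 (0.545), -1.28 (0.527) and -1.33 (0.687) in the same order.

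For Timp3 the effect was smaller in fibroblast-like than in macrophage-like (-2.27, 9.07e-06; 2.4% of all genes), NK-like (-1.47, 0.00529) and epithelial-like cells (-4.34, 0.000828). In mural-like cells it was smaller than in macrophage-like (-2.47, 6.02e-05; 1.52%), NK-like (-1.43, 0.0215; 4.23%) and epithelial-like cells (-4.59, 9.75e-06). In endothelial-like cells it was smaller than in macrophage-like (-2.39, 1.23e-05) and epithelial-like cells (-4.26, 4.03e-05). It was smaller in NK-like (-2.91, 0.0184) and T cell-like (-3.66, 0.00523) than in epithelial-like cells. In thinned cells the Timp3 differences of fibroblast-, mural- and endothelial-like from epithelial-like cells were called (-2.51, -2.94 and -2.59), and the others listed for Timp3 were not.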

How the results depend on the processing

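Over 342 alternatives, 285 kept direction and side of the threshold, 32 lost a call, 11 gained one and 14 reversed. The finer clusters left the fibroblast- and mural-like classes unchanged, so for them that alternative repeats the same values. Values that reversed, as log2 fold changes, were as follows. With no filter on low counts, Mmp14 was 0.0228 in fibroblast-like cells, and in mural-like cells it was 0.0098. Mmp14 in mural-like cells was 0.46 thinned and 0.0288 with the marker gate, and Timp2 was 0.0618 with the gate in macrophage-like cells. With the intron-length trend removed Timp2 was 0.32 in macrophage-like and 0.33 in NK-like cells. Leaving out 1 library reversed Mmp14 in fibroblast-like cells (range -0.34 to 0.27), Timp3 there (-0.21 to 1.06), Mmp14 in mural-like cells (0.09 and 0.17 without deligated replicate 2 and homeostatic replicate 1), Mmp12 in macrophage-like cells (-2.20 to 2.78), Timp2 in NK-like cells (-0.17 to 0.0085) and Mmp9 in T cell-like cells (-0.20 to 1.98). Genes called changed from 2921 to 1037 (thinned) and 1903 (DESeq2) in fibroblast-like cells, from 722 to 160, 427, 365 (intron trend) and 1116 (no filter) in mural-like, from 4666 to 2551 (thinned) in endothelial-like, from 1405 to 117, 583 and 641 (intron trend) in macrophage-like, from 5016 to 2308 (thinned) in NK-like, from 1859 to 604, 1123 and 906 (intron trend) in T cell-like and from 1049 to 224 (thinned) and 202 (no filter) in epithelial-like cells. Members called changed from 4 to 5 (thinned, Timp3 gained) and 6 (no filter, Timp3 and Mmp9 gained) in fibroblast-like, from 4 to 2 (thinned) and 6 (no filter, Mmp3 and Timp1 gained) in endothelial-like, from 2 to 0 (thinned), 1 (DESeq2), 1 (gate) and 3 (no filter, Mmp3 gained) in macrophage-like, from 3 to 0 (thinned), 1 (DESeq2) and 1 (no filter) in NK-like, from 2 to 1 (thinned, Timp2 lost) in epithelial-like, and from 0 to 1 in mural-like and 2 in T cell-like cells with no filter. Differences between classes called fell from 27 to 7 when thinned, 5 of them shared and 2 gained (Mmp2 fibroblast- against endothelial-like and Timp3 endothelial- against NK-like). Leaving out 1 library gave 1224 to 4261 genes and 2 to 6 members in fibroblast-like, 472 to 760 and 0 to 0 in mural-like, 1989 to 7872 and 1 to 5 in endothelial-like, 547 to 1564 and 2 to 2 in macrophage-like, 2668 to 3976 and 0 to 2 in NK-like, 639 to 2728 and 0 to 1 in T cell-like and 262 to 3607 and 2 to 3 in epithelial-like cells; a lone library was assumed to vary like the other group.

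The replicate numbers did not pair the libraries (correlations of same-numbered deviations from -0.08 to 0.10). With a replicate block 2759, 761, 4410, 1033, 4899, 1833 and 1435 genes were called in fibroblast-, mural-, endothelial-, macrophage-, NK-, T cell- and epithelial-like cells, with 4, 0, 4, 1, 3, 0 and 3 members. The stricter cell filter left too few mural-, macrophage- and epithelial-like cells in a library to give a value. Few cells in a library limit the precision there, as with the 37 macrophage-like and 46 epithelial-like cells of deligated 1.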

Other observations

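Genes with the level pattern most like each member were ranked by Pearson's r of log2(CPM + 1) over 35 class-by-library sums of 11 classes, among 14444 genes. The sums share libraries and depth, so r is a description. For Mmp2 the nearest genes were Efemp1 (r = 0.94), Apod (0.94) and Gpr153 (0.92), and for Mmp3 Inmt (0.98), Crabp1 (0.98) and Lum (0.96). Mmp14 was nearest to Cd302 (0.95), Sh3pxd2b (0.92) and Col14a1 (0.91), and Timp2 was nearest to Mmp14 itself (0.90). Mmp12 was nearest to C5ar1 (0.95), Fcrls (0.94) and Dcstamp (0.94). Timp1 was nearest to Ahnak2 (0.95), Serpina3n (0.95) and Col12a1 (0.94), and Timp3 to Cd151 (0.98), Agrn (0.96) and Sparcl1 (0.96). Mmp9 had no close match, with Sv2c (0.72), Tcrg-V1 (0.72) and Cd8b1 (0.69) first.

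In NK-like cells 5 of 7 ADAM and ADAMTS genes that passed the filter fell: Adam9 (-1.43), Adam19 (-1.33), Adam17 (-0.65), Adam10 (-0.59) and Adamts10 (-0.50). In that class 43.7% of all genes were called and 26.8% were called lower. In T cell-like cells Adam12 (-2.84), Adam19 (-1.36), Adam10 (-0.90) and Adam17 (-0.76) fell and Adam8 rose (1.64), beside 14.2% of all genes called lower and 5.04% called higher. Of the activators, other inhibitors and clearance genes Reck fell (-1.93) and Lrp1 (2.93) and Furin (0.61) rose in NK-like cells, and Reck fell (-1.35) and Furin rose (1.19) in T cell-like cells. In epithelial-like cells Thbs1 (6.65), Lrp1 (4.67), Adamts9 (2.60), Furin (2.18), Adam10 (1.70) and Bsg (1.34) rose, beside 8.51% of all genes called higher, in a class whose makeup differed between the groups.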
